A study of Homo sapiens with 8 samples.

Results

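The genes described here encode the kinases and complexes of the AKT, TSC and mTOR axis: AKT1, AKT2, TSC1, TSC2, RHEB, MTOR, MLST8, RPTOR, AKT1S1 and RICTOR. They were chosen by name, and all 10 were among the 13453 genes of the expression table. All 10 also passed the filter on low values, a mean FPKM (sequenced fragments scaled to exon length and to library size) of at least 1 over the 8 libraries, which left 11427 genes for testing. RNA-seq was performed on Jurkat cells, an established human T-cell acute lymphoblastic leukemia (T-ALL) line, in 4 conditions of 2 libraries each. The sh-Ctrl cells carried a control short hairpin RNA and the sh-CBAP cells one against CBAP, a transmembrane protein encoded by TMEM102. In the study's methods both were stable lines made with lentivirus and puromycin. The CBAP-KO+GFP cells were edited with CRISPR/Cas9 to lose CBAP and expressed GFP, and the CBAP-reconstituted cells were CBAP-KO cells that expressed a CBAP-GFP fusion. The sh-Ctrl and CBAP-reconstituted libraries are called CBAP-expressing and the sh-CBAP and CBAP-KO+GFP libraries CBAP-deficient. The sh-Ctrl and sh-CBAP libraries form the shRNA set and the other two conditions the CRISPR set. Both conditions of the CRISPR set therefore went through editing and GFP expression, and the CBAP-expressing condition of that set is a rescue and not an unedited cell. In the study's methods knockout lines were grown from single sorted cells, and its supplement describes those with GFP or CBAP-GFP as stable clones. Within the CRISPR set, a difference between clones and one with CBAP cannot be told apart.

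AKT kinases are switched on by phosphorylation downstream of PI3K, and active AKT phosphorylates and inhibits TSC2. TSC2 forms a complex with TSC1 that inactivates the small GTPase RHEB, and RHEB bound to GTP activates the mTOR kinase in mTOR complex 1 (mTORC1). mTORC1, built on RPTOR, drives protein synthesis and growth, and mTOR complex 2 (mTORC2), built on RICTOR, phosphorylates AKT. These steps act on proteins, and the values below are mRNA levels, which hold no measure of phosphorylation or complex activity. The study placed CBAP in this axis, so the question asked of each gene was whether its mRNA differed with CBAP.

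Summed over genes, the FPKM came to 362082 to 434742 per library, and each library listed 606 to 1256 genes at 0. The number of reads behind each value is unknown, because FPKM is scaled to it. TMEM102 had FPKM values of 4.07 and 4.74 in sh-Ctrl and of 2.69 and 2.90 in sh-CBAP cells, whereas all 4 CRISPR libraries listed it at 0, those with restored CBAP too, and it gave no check of their labels. Of 9 T cell markers, 8 were in the table, and their summed FPKM was 1467 to 2310 in every library. The highest sum was that of CBAP-KO+GFP 2, where CD3E had an FPKM of 1022 against 530 in CBAP-KO+GFP 1. CD28 and CD7 stood apart in CBAP-reconstituted cells, with FPKM values of 2.93 and 2.59 for CD28 and 39.0 and 38.2 for CD7, against at least 24.1 and 124 in the 6 other libraries. This difference in T cell markers moved with every comparison inside the CRISPR set reported below, and its part in them was not tested. Of the markers of other cell types, 1 of 4 for B cells (CD79A, FPKM 0.732 to 22.5), 1 of 3 for erythroid cells (HBA1, 0 to 4.25), 0 of 5 for myeloid cells and 0 of 4 for epithelial cells were in the table analysed. CD79A stood apart in CBAP-reconstituted cells as well, at 0.732 and 1.09 against 9.60 to 22.5 in the 6 other libraries, and its part in the comparisons was not tested either. The labels number the libraries of a condition and do not say whether they came from separate cultures or clones, so the p-values measure the spread between these libraries.

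TSC2 was the one member called higher within the CRISPR set, and its start is shown first because a neighbouring gene on the other strand moved the opposite way in that set. Neither gene was called in the shRNA set or between the classes. TSC2 (GRCh37, hg19) occupies bases 2097968 to 2139492 of chromosome 16, plus strand, and NTHL1, a DNA glycosylase of base excision repair, starts on the minus strand about 0.1 kb upstream. The 100 bases between the annotated start of NTHL1 and that of TSC2, chr16:2097868-2097967 on the plus strand, are shown 5′ to 3′ with the E-box CACGTG in capitals. They are read from GRCh37 and match the RefSeq promoter entry of TSC2.

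NTHL1-TSC2 stretch: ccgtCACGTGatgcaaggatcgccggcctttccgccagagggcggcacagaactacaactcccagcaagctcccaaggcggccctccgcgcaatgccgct

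The E-box CACGTG, which reads the same on both strands, ends 91 bases before the start of TSC2. The same 6 letters stood in this 100-base window in 3.27% of 35116 RefSeq promoters (GRCh38.p14) and anywhere in the 250 bases before the start in 6.34%. Of the 8 members with a RefSeq promoter entry, TSC2 was the 1 that held it. MLST8 and AKT1S1 had no entry. The GC box GGGCGG, searched on both strands, was found in 7 of the 8, all but RPTOR, against 42.6% of all promoters. The CCAAT box, also on both strands, was found in AKT2, MTOR, RHEB and RICTOR, 4 of the 8, against 32% of all promoters. The first entry of AKT2 held 0 CCAAT boxes, and AKT2 was counted through another of its entries. A member was counted if any of its entries held a motif, whereas the percentages are shares of single entries, which favours the members. The motifs do not overlap in letters, and a match describes the sequence and not a bound factor.

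Across the 10 members, the mean FPKM over all libraries ranged from 6.33 for RICTOR to 101 for AKT1. Among the tested genes AKT1 stood at percentile 94.1 by this mean, MLST8 at 82.6, AKT2 at 75.9, AKT1S1 at 69.5 and RHEB at 60.9. RPTOR, TSC2 and MTOR lay between percentiles 52.8 and 53.9, and TSC1 and RICTOR at 29.6 and 29.4. AKT1 mRNA was thus the most abundant of the group per length of transcript, and the scaffold of mTORC2 and the partner of TSC2 the least. The highest library exceeded the lowest by 2.17-fold for MLST8, 2.16-fold for AKT1S1 and 2.03-fold for TSC2, against 1.09-fold for AKT2 and 1.21-fold for TSC1 and MTOR.

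**Figure D1:**
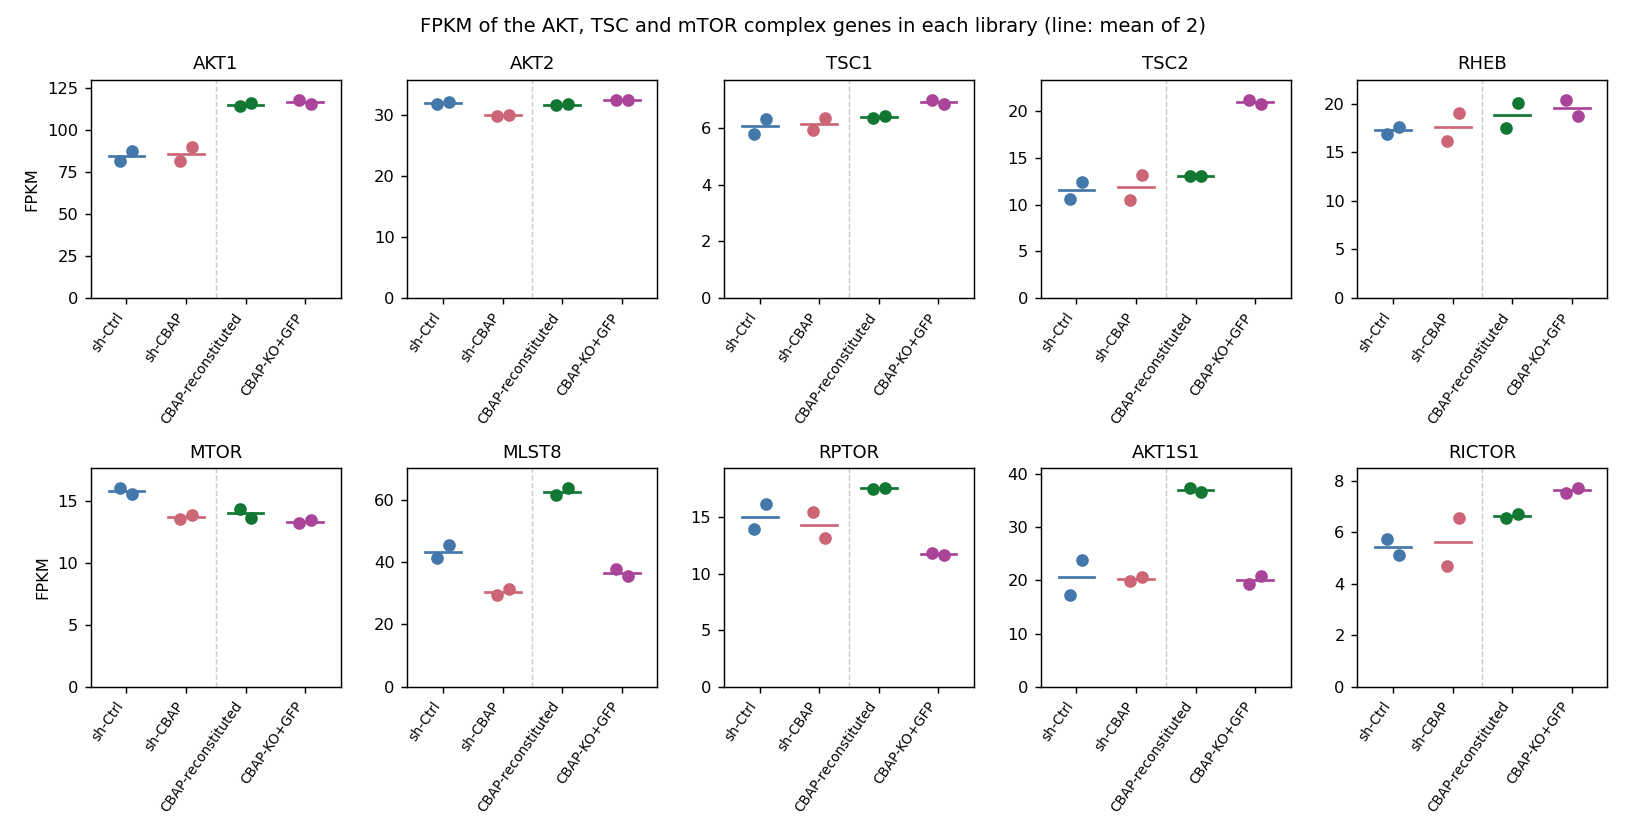
FPKM (y axis, linear, from 0) of each of the 10 genes in each library by condition (x axis), with 1 point per library, a line at the mean of the 2 libraries, and a dashed line between the shRNA set on the left and the CRISPR set on the right. MLST8 is lower in the 4 CBAP-deficient libraries (29.4 to 37.6) than in the 4 CBAP-expressing ones (41.2 to 63.7), TSC2 is highest in CBAP-KO+GFP cells (20.7 and 21.2) and AKT1S1 in CBAP-reconstituted cells (36.7 and 37.4).

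The log2 fold changes below are on the log2(FPKM + 1) scale and come from limma with Benjamini-Hochberg adjustment over all 11427 genes, and a gene was called at an adjusted p under 0.05. Changes on this scale are smaller than the log2 ratio of the FPKM values, by little for the members and by much for genes with an FPKM near or under 1. When the 4 CBAP-deficient libraries were compared with the 4 CBAP-expressing ones, 0.621% of all genes were called and 0 of the 10 members. At an unadjusted p under 0.05 there were 2 members, MLST8 and RPTOR, and 2397 of all genes. The median log2 fold change of the members was -0.004, against -0.0352 over all tested genes. MLST8 was the single member whose 4 CBAP-deficient libraries all lay below the 4 CBAP-expressing ones, and in the other 9 the classes overlapped. How many of all tested genes separate in this way was not counted, so this does not set MLST8 apart from them. In bulk RNA, fewer cells that express a gene and less of its mRNA per cell cannot be told apart.

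Within the shRNA set, 12.3% of all genes were called between sh-CBAP and sh-Ctrl, and 1 of the 10 members, MLST8, which fell. Within the CRISPR set, 49.9% of all genes were called between CBAP-KO+GFP and CBAP-reconstituted cells, and 4 of the 10 members. TSC2 rose, and MLST8, AKT1S1 and RPTOR fell. Both shares are near those of all genes. The median log2 fold change of the members was 0.008 in the shRNA set (all genes -0.0598) and 0.028 in the CRISPR set (all genes 0). The direct test of the difference between the changes in the sets called 33.8% of all genes and 2 of the 10 members, AKT1S1 and TSC2. The cells of the sets differ in the method used against CBAP, in their derivation and in what restored or controlled CBAP, and these cannot be told apart.

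**Figure D2:**
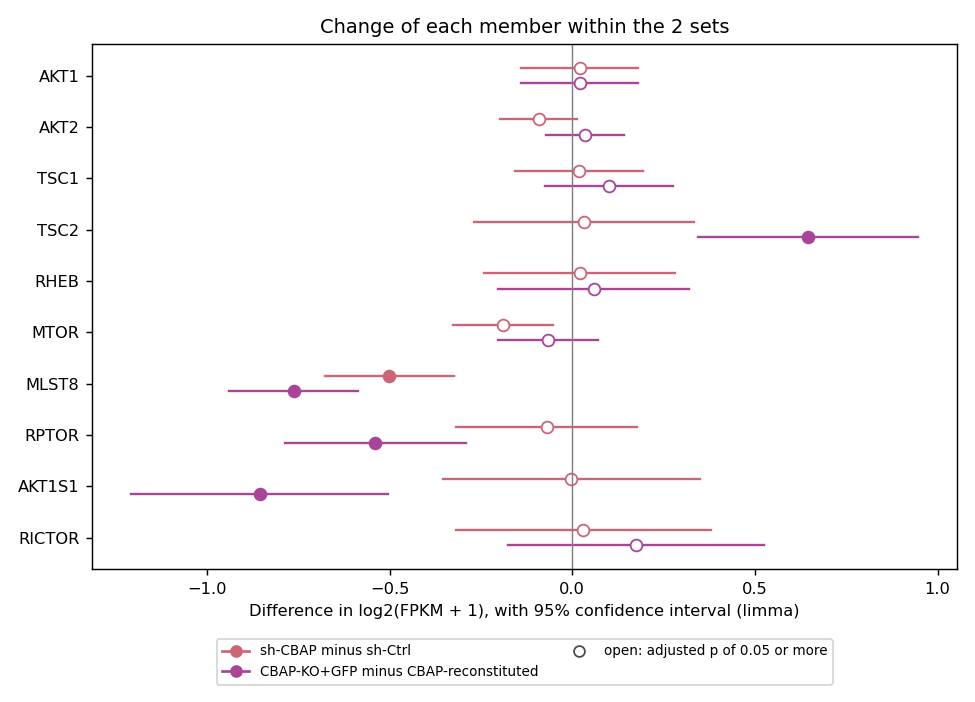
Difference in log2(FPKM + 1) (x axis) of each gene (y axis) for sh-CBAP minus sh-Ctrl and for CBAP-KO+GFP minus CBAP-reconstituted, with 95% confidence intervals from limma; filled points have an adjusted p under 0.05 over all tested genes. MLST8 lies left of 0 in both sets (-0.50 and -0.76), while TSC2 (0.65), RPTOR (-0.54) and AKT1S1 (-0.86) have filled points in the CRISPR set and open ones in the shRNA set.

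AKT1 and AKT2 encode the isoforms of AKT that are expressed in most tissues. The FPKM of AKT1 was 81.7 and 87.9 in sh-Ctrl, 82.0 and 90.1 in sh-CBAP, 114 and 116 in CBAP-reconstituted and 118 and 115 in CBAP-KO+GFP cells (reconstituted and knockout means 115 ± 1.42 and 117 ± 2.02, SD, n = 2). The libraries split by set and not by CBAP, and within each set the conditions overlapped. The log2 fold change of AKT1 was 0.02 in both sets, with 95% confidence intervals of -0.14 to 0.18. Under quantile normalization the value in the CRISPR set was 0.26 and passed the test (limma adjusted p = 0.00417). Between the sets, AKT1 was higher in the CRISPR set by 0.44 (standard error 0.046, limma adjusted p = 0.000919). In that comparison 55.9% of all genes were called, and the median of all genes was itself shifted by 0.181, a shift against which each value between the sets is to be read.

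AKT2 was nearly level over the experiment. Its FPKM was 31.8 and 32.2 in sh-Ctrl, 29.9 and 30.1 in sh-CBAP, 31.7 and 31.8 in CBAP-reconstituted and 32.6 and 32.5 in CBAP-KO+GFP cells. The sh-CBAP libraries were the lowest of the 8, yet the change within the shRNA set did not pass the test (-0.09, 95% confidence interval -0.20 to 0.01, limma adjusted p = 0.218). In the CRISPR set it was 0.03 (-0.07 to 0.14).

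TSC2 is the subunit of the TSC complex that acts on RHEB, and TSC1 stabilises it. The FPKM of TSC2 was 10.6 and 12.4 in sh-Ctrl and 10.5 and 13.2 in sh-CBAP cells, and the conditions of this set overlapped. It was 13.0 and 13.1 in CBAP-reconstituted and 21.2 and 20.7 in CBAP-KO+GFP cells, so both knockout libraries lay above the 6 others. TSC2 rose within the CRISPR set by 0.65 (standard error 0.122, limma adjusted p = 0.00754), a ratio of mean FPKM of 1.61. With the hairpin its log2 fold change was 0.03 (95% confidence interval -0.27 to 0.33). The changes of TSC2 differed between the sets by -0.61 (shRNA minus CRISPR, 95% confidence interval -1.04 to -0.19, limma adjusted p = 0.0418). That call was lost without any 1 of the sh-Ctrl 2, CBAP-reconstituted and CBAP-KO+GFP libraries, with adjusted p from 0.0967 to 0.128, while the rise within the CRISPR set held without each library (highest adjusted p 0.0493).

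TSC1 did not pass the test in either set. Its FPKM was 5.78 and 6.34 in sh-Ctrl, 5.95 and 6.35 in sh-CBAP, 6.37 and 6.42 in CBAP-reconstituted and 7.01 and 6.85 in CBAP-KO+GFP cells. Both knockout libraries were above the others, with a log2 fold change in the CRISPR set of 0.10 (95% confidence interval -0.07 to 0.27) that was -0.04 under quantile normalization.

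Around TSC2 on chromosome 16, 24 other tested genes start within 250 kb of its start. In the CRISPR set 1 of them was called higher and 12 lower, with a median log2 fold change of -0.474, where 49.9% of all genes were called, 2734 higher and 2963 lower, with a median of 0. The 24 include 4 genes listed at 0 in all 4 CRISPR libraries, which could not be called there. In the shRNA set 0 were called higher and 4 lower, MLST8 among them, with a median of -0.085. Of all genes 12.3% were called there, 414 higher and 994 lower, with a median of -0.0598. The gene called higher in the CRISPR set was PKD1, a membrane protein of primary cilia, whose log2 fold change was 0.45 (limma adjusted p = 0.0217). For PKD1 the FPKM values were 10.2 and 10.3 in sh-Ctrl and 8.55 and 10.8 in sh-CBAP cells. They were 6.99 and 6.44 in CBAP-reconstituted and 9.98 and 9.06 in CBAP-KO+GFP cells. PKD1 was thus lowest in CBAP-reconstituted cells, whereas TSC2 was highest in CBAP-KO+GFP cells. PKD1 lies on the minus strand and shares 784 bases with exons of TSC2 at their ends, and whether the libraries kept strand is not given in the sources used here, so reads of that overlap could be counted to either gene. NTHL1, across the stretch shown above, had FPKM values of 36.3 and 37.7 in sh-Ctrl, 39.0 and 36.0 in sh-CBAP, 42.0 and 41.2 in CBAP-reconstituted and 18.6 and 19.4 in CBAP-KO+GFP cells. NTHL1 fell within the CRISPR set by 1.09 (limma adjusted p = 0.000107), and with the hairpin it differed by 0.02 on the log2 scale. TSC2 and NTHL1 thus both stood apart in CBAP-KO+GFP cells, one above and the other below the 6 other libraries. NTHL1 and PKD1 were picked for their position next to TSC2 after their values were seen.

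RHEB, the GTPase between the TSC complex and mTORC1, did not pass the test in any comparison. The FPKM of RHEB was 16.9 and 17.6 in sh-Ctrl, 16.1 and 19.0 in sh-CBAP, 17.5 and 20.1 in CBAP-reconstituted and 20.4 and 18.7 in CBAP-KO+GFP cells. Neighbouring conditions overlapped throughout the order, with a log2 fold change of 0.02 (95% confidence interval -0.24 to 0.28) in the shRNA set and 0.06 (-0.20 to 0.32) in the CRISPR set. The annotation (GENCODE 44) names 3 pseudogenes after RHEB, RHEBP1, RHEBP2 and RHEBP3, and reads shared with them would make its values uncertain.

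MTOR encodes the kinase of both complexes. The FPKM of MTOR was 16.1 and 15.6 in sh-Ctrl, 13.6 and 13.9 in sh-CBAP, 14.4 and 13.7 in CBAP-reconstituted and 13.3 and 13.5 in CBAP-KO+GFP cells. The sh-Ctrl libraries were the highest of the 8, and the other 6 lay within 13.3 to 14.4. The change within the shRNA set was -0.19 (95% confidence interval -0.33 to -0.05) and missed the threshold after adjustment (limma adjusted p = 0.0828). In the CRISPR set it was -0.07 (-0.20 to 0.07).

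MLST8 encodes a WD40-repeat subunit bound to the kinase domain of mTOR in both complexes. It lies on chromosome 16 from 2254249 to 2259454, with its start 156.3 kb from that of TSC2. The FPKM of MLST8 was 41.2 and 45.6 in sh-Ctrl and 29.4 and 31.3 in sh-CBAP cells (43.4 ± 3.14 and 30.3 ± 1.35, SD, n = 2). It was 61.5 and 63.7 in CBAP-reconstituted and 37.6 and 35.4 in CBAP-KO+GFP cells (62.6 ± 1.52 and 36.5 ± 1.60). The CBAP-deficient condition was the lower one in each set with no overlap, and none of the 4 conditions overlapped its neighbour in the order of levels. MLST8 fell by 0.50 in the shRNA set (standard error 0.071, limma adjusted p = 0.0152) and by 0.76 in the CRISPR set (standard error 0.071, limma adjusted p = 0.000632). The ratios of mean FPKM were 0.7 and 0.583.

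The fall of MLST8 in the shRNA set did not pass without either CBAP-reconstituted library (limma adjusted p = 0.0562 and 0.0561), although its size stayed at -0.50, since those libraries enter through the shared estimate of the spread. The difference between the changes of MLST8 in the sets was 0.26 (95% confidence interval 0.01 to 0.51) and missed the threshold (limma adjusted p = 0.0971), but passed it with median ratio scaling (0.33, limma adjusted p = 0.0341). Over both classes, the log2 fold change was -0.63 (95% confidence interval -1.01 to -0.26) with a limma adjusted p of 0.104, and of 0.0107 with the set as a covariate. In MLST8, 201 exon bases lie within the span of BRICD5, a gene on the opposite strand, whose FPKM was at most 4.96 in every library.

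RPTOR is the scaffold of mTORC1 that recruits its substrates. The FPKM of RPTOR was 14.0 and 16.2 in sh-Ctrl and 15.5 and 13.2 in sh-CBAP cells, which overlapped. It was 17.6 in each CBAP-reconstituted library and 11.9 and 11.7 in CBAP-KO+GFP cells, the highest and the lowest pairs of the experiment. RPTOR fell within the CRISPR set by 0.54 (standard error 0.10, limma adjusted p = 0.00708; ratio of mean FPKM 0.67). Its log2 fold change in the shRNA set was -0.07 (95% confidence interval -0.32 to 0.18), and the difference between the sets was just outside the threshold (0.47, limma adjusted p = 0.0505). Of 17 alternatives 4 took it past the threshold: a mean FPKM of at least 5 (adjusted p 0.0486), listed zeros as missing (0.0372), and leaving out sh-Ctrl 2 (0.0374) or sh-CBAP 2 (0.0194).

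AKT1S1 encodes PRAS40, a substrate of AKT that binds RPTOR and restrains mTORC1. The FPKM of AKT1S1 was 17.3 and 23.8 in sh-Ctrl, 19.9 and 20.7 in sh-CBAP, 37.4 and 36.7 in CBAP-reconstituted and 19.3 and 20.7 in CBAP-KO+GFP cells. The CBAP-reconstituted libraries stood above the other 6, which spanned 17.3 to 23.8. AKT1S1 fell within the CRISPR set by 0.86 (standard error 0.142, limma adjusted p = 0.00480; ratio of mean FPKM 0.541), so the level in CBAP-KO+GFP cells was within the range of sh-Ctrl cells and the level with restored CBAP was not. In the shRNA set the log2 fold change was 0.00 (95% confidence interval -0.35 to 0.35). The changes differed between the sets by 0.85 (95% confidence interval 0.36 to 1.35, limma adjusted p = 0.0247), a call lost without any 1 library of the CRISPR set (adjusted p 0.0571 to 0.0912). AKT1S1 lies on chromosome 19 from 50372290 to 50381716 on the minus strand, where other annotated genes overlap it, and its values are uncertain to the extent that reads were split among them.

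RICTOR, the scaffold of mTORC2, did not pass the test within either set. The FPKM of RICTOR was 5.74 and 5.11 in sh-Ctrl, 4.68 and 6.56 in sh-CBAP, 6.58 and 6.71 in CBAP-reconstituted and 7.54 and 7.71 in CBAP-KO+GFP cells. The sh-CBAP libraries enclosed both sh-Ctrl values, and both knockout libraries were above the 6 others. The log2 fold change was 0.03 (95% confidence interval -0.32 to 0.38) in the shRNA set and 0.17 (-0.18 to 0.52) in the CRISPR set. The annotated span of RICTOR overlaps that of OSMR on the opposite strand.

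Between the sets, 5 of the 10 members were called, near the 55.9% of all genes, of which 4886 were higher and 1496 lower in the CRISPR set. Each of the 5 was higher in the CRISPR set: TSC2 by 0.48, AKT1 by 0.44, AKT1S1 by 0.41, MLST8 by 0.39 and RICTOR by 0.32. Leaving out 1 library ended the call of RICTOR for either library of sh-Ctrl, CBAP-reconstituted or CBAP-KO+GFP cells (limma adjusted p 0.0596 to 0.108) and that of AKT1S1 for either CBAP-reconstituted library or CBAP-KO+GFP 2 (0.0529 to 0.0615). The median of the members was 0.228 and that of all genes 0.181. After the libraries were scaled by their median ratio, the median of all genes was 0.00231, and AKT1 (0.24), TSC2 (0.29) and MLST8 (0.20) stayed called at smaller values while AKT1S1 (0.22, limma adjusted p = 0.126) and RICTOR (0.15, adjusted p = 0.164) did not. Under that scaling MTOR (-0.28, adjusted p = 0.00325) and AKT2 (-0.14, adjusted p = 0.0255) were called lower in the CRISPR set, against 0.05 without a call for AKT2 before it. MTOR was called lower with quantile normalization too (-0.28, limma adjusted p = 0.00332).

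The members sit in a wider pathway, for which a list of 63 other genes was used: further subunits and isoforms, inputs to AKT and TSC, the amino acid arm that brings mTORC1 to the lysosome, and substrates. Of these, 61 were in the table and 58 were tested. In the comparison of classes, 1 of the 58 was called (1.7%), RRAGA, a Rag GTPase that holds mTORC1 at the lysosome, with a log2 fold change of -0.53 (limma adjusted p = 0.0336). The FPKM of RRAGA was 48.5 and 48.7 in sh-Ctrl, 32.4 and 31.9 in sh-CBAP, 50.6 and 49.6 in CBAP-reconstituted and 35.9 and 35.1 in CBAP-KO+GFP cells. As for MLST8, both CBAP-deficient conditions lay below both CBAP-expressing ones.

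Within the shRNA set 7 of the 58 genes were called (12.1%), 2 higher and 5 lower, and within the CRISPR set 31 (53.4%), 12 higher and 19 lower, shares close to those of all genes. The median log2 fold changes of the list were -0.076 and -0.111. The changes differed between the sets for 26 of the 58 (44.8%, against 33.8% of all genes). The 7 tested other subunits and isoforms (such as TBC1D7 of the TSC complex, MAPKAP1 of mTORC2 and the assembly factor TELO2) all had negative log2 fold changes in both sets. The share of all genes with negative values in both sets was not counted. In the CRISPR set 6 were called, all lower (85.7%, against 49.9% of all genes called in either direction), where 2963 of all 11427 genes were called lower. In the shRNA set 1 was called, also lower (14.3%, against 12.3% in either direction), where 994 of all genes were called lower. These subunits were named after their values were seen. In the CRISPR set TELO2, which helps mTOR mature, fell by 0.83 and TBC1D7 by 0.73.

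Of the 11 tested inputs to AKT and TSC, 4 were called higher and 2 lower in the CRISPR set (54.5%, against 49.9% of all genes) and 1 in the shRNA set (9.1%, against 12.3%). Each count includes a gene with listed zeros, PDPK1 among those lower in the CRISPR set and PRKAG1 in the shRNA set. PDPK1, the kinase that phosphorylates AKT, had a listed 0 in each CBAP-KO+GFP library and stood at 9.69 to 11.7 FPKM in the other 6. PRKAG1, a subunit of AMPK, was listed at 0 in both sh-Ctrl libraries and at 21.8 to 33.4 FPKM elsewhere. A listed 0 can be a failed estimate, so no fold is given for these genes. DDIT4, a stress-induced inhibitor of mTORC1, had FPKM values of 28.6 and 16.9 in sh-Ctrl, 14.6 and 16.0 in sh-CBAP, 8.55 and 8.86 in CBAP-reconstituted and 18.8 and 19.2 in CBAP-KO+GFP cells, and its changes differed between the sets (-1.54, limma adjusted p = 0.0158). PRKAB1, another AMPK subunit, was higher in the CRISPR set than in the shRNA set by 0.79, and the AKT phosphatase PHLPP1 lower by 1.04. Within the CRISPR set their log2 fold changes were 0.42 and -0.88.

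Of the 23 tested genes of the amino acid arm, 2 were called higher and 7 lower in the CRISPR set (39.1%, against 49.9% of all genes) and 2 lower in the shRNA set (8.7%, against 12.3%). SESN2, a leucine sensor, rose from 5.96 and 5.57 to 13.9 and 13.6 FPKM (1.12, limma adjusted p = 0.0156), although sh-Ctrl cells held 10.3 and 5.28. RRAGD was lower in the CRISPR set as a whole than in the shRNA set by 0.56. Among the 17 substrates 6 were called higher and 4 lower in the CRISPR set (58.8%, against 49.9% of all genes), and 1 higher and 2 lower in the shRNA set (17.6%, against 12.3%). ATG13, of the autophagy initiation complex, rose from 17.9 and 18.6 to 41.9 and 41.7 FPKM (log2 fold change 1.15, limma adjusted p = 0.000189), with 16.4 to 19.9 in the shRNA set. PDCD4, an inhibitor of translation, rose from 7.86 and 8.62 to 19.5 and 21.0 FPKM (1.20, limma adjusted p = 0.00530). Cells of the shRNA set held 15.3 and 9.43 FPKM of PDCD4 in sh-Ctrl and 9.85 and 10.8 in sh-CBAP. GRB10, an adaptor that dampens insulin signalling, fell from 4.18 and 4.14 to 0.322 and 0.347 FPKM (-1.95, limma adjusted p = 7.77e-05) and within the shRNA set from 1.01 and 1.28 to 0.461 and 0.544 (-0.51, limma adjusted p = 0.0286). GSK3B, a kinase inhibited by AKT, rose within the shRNA set by 0.39 (limma adjusted p = 0.0202) and within the CRISPR set by 0.48 (limma adjusted p = 0.00203).

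**Figure D3:**
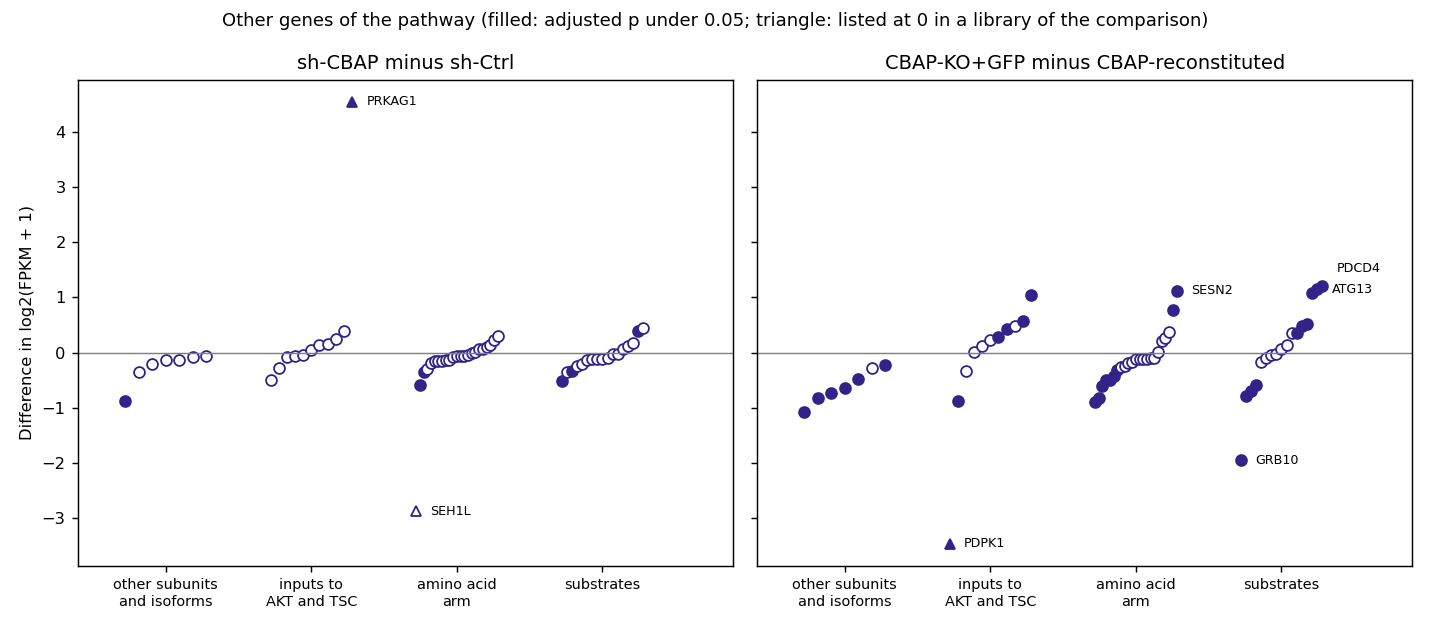
Difference in log2(FPKM + 1) (y axis) of the 58 tested other genes of the pathway, grouped by role (x axis) and ordered by size within a role, for sh-CBAP minus sh-Ctrl on the left and CBAP-KO+GFP minus CBAP-reconstituted on the right; filled points have an adjusted p under 0.05 and triangles mark genes listed at 0 in a library of the comparison. The other subunits and isoforms lie below 0 in both panels, with 6 of 7 filled on the right (85.7%, against 49.9% of all genes). In all there are 7 filled points on the left (12.1%, against 12.3% of all genes) and 31 on the right (53.4%).

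The genes whose log2(FPKM + 1) followed a member most closely over the 8 libraries were found as a description, with no test, since the libraries share conditions and sets. TSC2 was most like TRIM66, SLC11A2 and SAMD10 (Pearson's r of 0.9958, 0.9924 and 0.9917). SLC11A2, a transporter of iron, had FPKM values of 21.9 and 21.5 in CBAP-KO+GFP cells and 11.4 to 14.2 elsewhere. MTOR was most like ZYG11B, FBXL14 and MID1IP1 (0.9718, 0.9689 and 0.9643), all highest in sh-Ctrl cells. AKT1 was most like RNF4, SRSF4 and NXT2 (0.9989, 0.9960 and 0.9959), all split by set as AKT1 was.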

How the data were processed

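RNA was extracted with the RNeasy Mini kit and sequenced as 100-bp paired-end reads on an Illumina HiSeq instrument. TopHat 2 was used by the authors for alignment (hg19) and cuffdiff to estimate FPKM; the submitters' processing notes also name CASAVA 1.8, Bowtie and Cufflinks. The deposited table holds 1 FPKM value per gene and library, 13453 genes in 8 libraries. Cuffdiff's scaling, the annotation and strandedness are not given in the sources used here, and no counts could be used, so precision rests on 2 libraries per condition.

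log2(FPKM + 1) was computed, and the 11427 genes whose mean FPKM reached 1 were fitted with limma 3.58.1 (R 4.3.3, empirical Bayes with trend, Benjamini-Hochberg over all tested genes). The code was tested on simulated data in which no gene differed between the sets. That test cannot show how the comparison of classes performs where the sets differ, as they do here. One model had the CBAP class of the 8 libraries; the other had a mean for each of the 4 conditions with 1 shared spread. Groups came from the sample labels. The 2 libraries of each condition held different values, so each was counted once.

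All 10 members are named. Of the pathway list, the rule named the 3 called genes that rose most and the 3 that fell most in each comparison, TMEM102 and, for TSC2, MTOR and AKT1, the 3 genes most like them. The other subunits, NTHL1 and PKD1 were named after their values were seen, and a gene fixed by the rule is not reported here. The members and lists were chosen with earlier results of these data known. Positions come from GENCODE 44 on GRCh37 and promoters from the RefSeq table of GRCh38.p14, located in GRCh37 by exact match. Alternatives varied the pseudocount (0.1 or 0.5), filter (none, or a mean of 5), scaling, trend, listed zeros, covariates, blocks and single libraries. Protein data of the study were not analysed here. Figures used Python 3.11.15 and matplotlib 3.10.9.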

Additional observations from a re-analysis of the deposited data

Results flagged for a closer look

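AKT1S1 changed differently in the sets by the direct test of the difference (0.85, shRNA minus CRISPR, limma adjusted p = 0.0247), with 36.7 and 37.4 FPKM in CBAP-reconstituted cells and 17.3 to 23.8 in the 6 other libraries. TSC2 changed differently too (-0.61, limma adjusted p = 0.0418), with 20.7 and 21.2 FPKM in CBAP-KO+GFP cells and 10.5 to 13.2 in the 6 others. Among the 4 CBAP-expressing libraries, TSC1 in sh-Ctrl 1, at 5.78 FPKM, lay far from the other 3 by Dixon's criterion for a group of 4. Of 20 groups of 4 examined this was 1, and chance gives about 1 in 20.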

How the results depend on the processing

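Of the 50 log2 fold changes of members (10 genes in 5 comparisons) under 870 alternatives in all, 787 kept their direction and their side of the threshold, and 0 of the 12 called ones changed direction. In the comparison of classes the count of members called went from 0 to 1, MLST8, with median ratio scaling and with the set as a covariate. Of all genes, 1.46% were called with that scaling and 12.3% with the covariate, against 0.621% in the main fit. With single libraries left out, where a lone library is taken to vary as the other conditions do, the members called were 0 to 1 in the shRNA set, 0 to 4 for the difference between the sets and 3 to 5 between the sets; in the CRISPR set the count was 4 each time. The share of all genes called also moved with the library left out in each of these comparisons. These counts therefore do not measure how stable the members are. The gains of AKT1 in the CRISPR set with quantile normalization, of MLST8 for the difference with median ratio scaling and of RPTOR for the difference under 4 alternatives are given with those genes. The cause was not tested.

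Values not called in the main fit changed direction as follows. Of these, 1 was called after it changed direction, AKT2 between the sets with median ratio scaling. With quantile normalization, AKT2 was 0.040 between the classes and -0.11 between the sets; TSC1 was -0.041 in the CRISPR set, 0.13 for the difference and -0.052 between the sets; RHEB was 0.011 for the difference and -0.049 between the sets; AKT1S1 was 0.064 in the shRNA set; RICTOR was 0.063 for the difference. With median ratio scaling, AKT1 was 0.068 for the difference, AKT2 0.0073 between the classes and -0.14 between the sets, TSC1 -0.062 between the sets, RHEB 0.028 for the difference and -0.056 between the sets, and AKT1S1 0.066 in the shRNA set. With a library left out, the values in the shRNA set ranged from -0.047 to 0.088 for AKT1, -0.038 to 0.075 for TSC1, -0.12 to 0.19 for TSC2, -0.092 to 0.13 for RHEB, -0.18 to 0.039 for RPTOR, -0.22 to 0.22 for AKT1S1 and -0.18 to 0.24 for RICTOR. Between the classes they ranged from -0.070 to 0.12 for AKT1 and -0.0054 to 0.10 for RHEB, in the CRISPR set from -0.035 to 0.15 for RHEB, and between the sets from -0.078 to 0.031 for RPTOR. For the difference they ranged from -0.069 to 0.067 for AKT1, -0.15 to 0.075 for RHEB and -0.35 to 0.062 for RICTOR.

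Libraries with the same replicate number did not deviate together in all pairs of conditions (r of 0.146 for sh-Ctrl with sh-CBAP and 0.0239 for the CRISPR set), so the numbers were not taken as pairs. With the replicate block the members called were 0, 1, 4, 2 and 4 in the class, shRNA, CRISPR, difference and set comparisons; RICTOR between the sets (0.32, limma adjusted p = 0.0534) was the one call lost. The block took the calls over all genes from 71 to 11 between the classes and from 1408 to 776 in the shRNA set.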
